A study of Mus musculus with 4 samples.

Results

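The gamma crystallins of mouse lens epithelium were followed on the 8 probe sets that the array annotation assigns to Cryga, Crygb, Crygc, Crygd, Cryge, Crygf, Crygn or Crygs, out of 28944 probe sets in all. Of these, 7 carry 1 of the gene symbols, and 1 is shared by Crygf and Cryge, so that Cryge has no probe set of its own and Crygf is read by 2. The members were picked by their gene symbols and not by their values, although earlier results of these data were known. The lens epithelia came from male C57BL/6 mice, 8 weeks old, with no genetic alteration named. In anesthetized mice the right eye received UVB at 30 mJ/cm2 over 60 s, while foil shielded the left, control eye. Epithelia were isolated on the next day. Each of 2 independent experiments gave 1 control array and 1 UVB array, so that each group had 2 arrays. The methods count 3 mice in an animal experiment without saying how many mice an array stands for, so p-values measure only the spread between these arrays.

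Gamma crystallins are small monomeric proteins of the beta-gamma superfamily that pack at high concentration in lens fiber cells and give the lens its refractive power. Their genes are switched on when epithelial cells at the lens equator turn into fiber cells, and mutations in several of them cause dominant cataract in mice. Cryga to Cryge lie next to each other on chromosome 1 with Crygf farther along it, whereas Crygs, whose product γS is abundant in the outer cortex of the adult lens, and Crygn, whose product combines features of beta and gamma crystallins, lie elsewhere.

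The values were log2 signals as normalized by the authors, from 1.49 to 13.97 over the 4 arrays. The array medians lay between 7.19 and 7.22. The control and UVB signals of experiment 1 added up to the same total as those of experiment 2 within 0.02 in 100% of probe sets, the 8 gamma crystallin probe sets included. An experiment with a larger UVB difference therefore had, by construction, both a higher control value and a lower UVB value, or the reverse, than the other experiment. For the same reason the groups do not overlap wherever both differences have the same sign, so that non-overlap adds nothing to the 2 signs. It also leaves the fit of UVB against control without a block with less freedom than its 2 residual degrees. The fit with the experiment as a block is therefore given too. In that fit limma called 0 of 28944 probe sets at an adjusted p of 0.05. Standard errors are from the fit without a block unless named, and for every gamma crystallin probe set they were smaller than with it. Mean control signals of 9 of 11 lens epithelium markers exceeded the median of the arrays, among them Foxe3 and Pax6, transcription factors of the lens epithelium. Gjb6 and Abcb5 lay below it. This measure does not mark lens epithelium alone. In controls, 13 of 16 photoreceptor and 5 of 5 Müller glia markers exceeded the median too, against 1 of 6 of cornea and conjunctiva. Lens fiber markers were high as well. In the 14 measured, including the beaded filament genes Bfsp1 and Bfsp2, every array signal lay between 10.95 and 13.57, although the cortex and nucleus were removed in the dissection. In such bulk samples, fewer cells of a type and less RNA per cell cannot be told apart.

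The proximal promoters of 5 members are shown for what the family shares before its starts, with Crygf, Cryge and Crygd as the most alike, Crygc as the member called below and Crygs as one outside the chromosome 1 group. All 8 genes matched a promoter in the RefSeq table of build GRCm38.p6. Each line holds the 100 bases that end just before the annotated start, 5′ to 3′. Capitals mark TTTGTG and TATATA, the stretches of 6 or more bases that the windows of all 6 chromosome 1 members share, and the TATAAA of Crygs. The windows are at chr1:65926422-65926521 on the plus strand for Crygf, and on the minus strand at chr1:65051164-65051263 for Cryge, chr1:65063441-65063540 for Crygd, chr1:65073533-65073632 for Crygc and chr16:22811411-22811510 for Crygs.
Crygf: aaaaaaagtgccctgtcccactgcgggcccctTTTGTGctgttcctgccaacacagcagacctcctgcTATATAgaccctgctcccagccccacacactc
Cryge: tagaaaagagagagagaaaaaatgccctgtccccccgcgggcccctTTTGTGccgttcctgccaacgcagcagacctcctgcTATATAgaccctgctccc
Crygd: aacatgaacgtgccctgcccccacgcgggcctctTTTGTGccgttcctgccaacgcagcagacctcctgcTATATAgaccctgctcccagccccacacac
Crygc: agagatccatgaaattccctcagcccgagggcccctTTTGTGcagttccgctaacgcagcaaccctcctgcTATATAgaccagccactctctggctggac
Crygs: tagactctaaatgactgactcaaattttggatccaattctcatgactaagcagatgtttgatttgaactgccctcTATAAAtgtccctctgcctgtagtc

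TATATA began at −32 in Crygf, −30 in Crygd, −29 in Crygc and −18 in Cryge, counted from the annotated start, which for Cryge lies inside the gene as RefSeq bounds it. It was in 7 of the 8 windows, all but Crygs, and in 2.19% of the 32851 promoter windows of this length, read on the gene's strand. TTTGTG was in the 6 members on chromosome 1 and in 2.97% of all windows. TATAAA was in Crygs only among the 8, and in 3.80% of all windows. TGCTGA, a part of the MAF recognition element, was found on neither strand in any member window and in 6.95% of all. ACAAAG, a form bound by SOX proteins, was in the Crygb window on 1 of the strands and in 6.56% of all. These are matches of letters in a short window and say nothing of binding. Among the 15 pairs of chromosome 1 members, identity of the windows after alignment ran from 63% to 91%, with a median of 72%, and the highest was that of Crygd with Crygf. Identity was counted as identical bases out of the 100 of a window. In Cryge, TATATA lies nearer the annotated start, which limits what its pairs can reach in this ranking. Pairs with Crygn or Crygs had 54% to 62%.

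Crygf had the largest difference of the family, and its signal was lower after UVB in both experiments. Its own probe set had control log2 signals of 10.97 in experiment 1 and 11.23 in experiment 2, and UVB signals of 10.77 and 10.51. Both UVB values thus lay below both control values, and the gap was wider in experiment 2. UVB minus control was −0.20 in experiment 1 and −0.72 in experiment 2. The mean was −0.46 (standard error 0.15, or 0.18 with the block), or 0.727-fold. The difference did not pass limma's adjusted p, at 0.152 without the block and 0.389 with it, and its 95% interval with the block ran from −1.17 to 0.25. Among the 3240 probe sets with a mean signal from 10 to 13, a range chosen after the values were seen, 0 had a lower difference than Crygf in the mean and in experiment 2, and 34 had one in experiment 1. Over the whole table, 44 had a lower one.

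The probe set shared by Crygf and Cryge, whose products are nearly identical proteins, had the same direction and a smaller size. Its control signals were 13.29 and 13.36 and its UVB signals 13.23 and 13.17. UVB minus control was −0.06 in experiment 1 and −0.19 in experiment 2. The mean of −0.12 (standard error 0.040) was not called by limma (adjusted p = 0.140, or 0.409 with the block). The probe sets that read Crygf therefore disagreed in size, −0.46 against −0.12, and the shared one lay near the upper end of the measured range. The middle absolute difference was 0.02 in the 169 probe sets with a mean signal over 13 and 0.04 in the 3240 with one from 10 to 13, and what part the level played in the sizes was not tested. How much of the shared signal came from Cryge is not known.

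**Figure D1:**
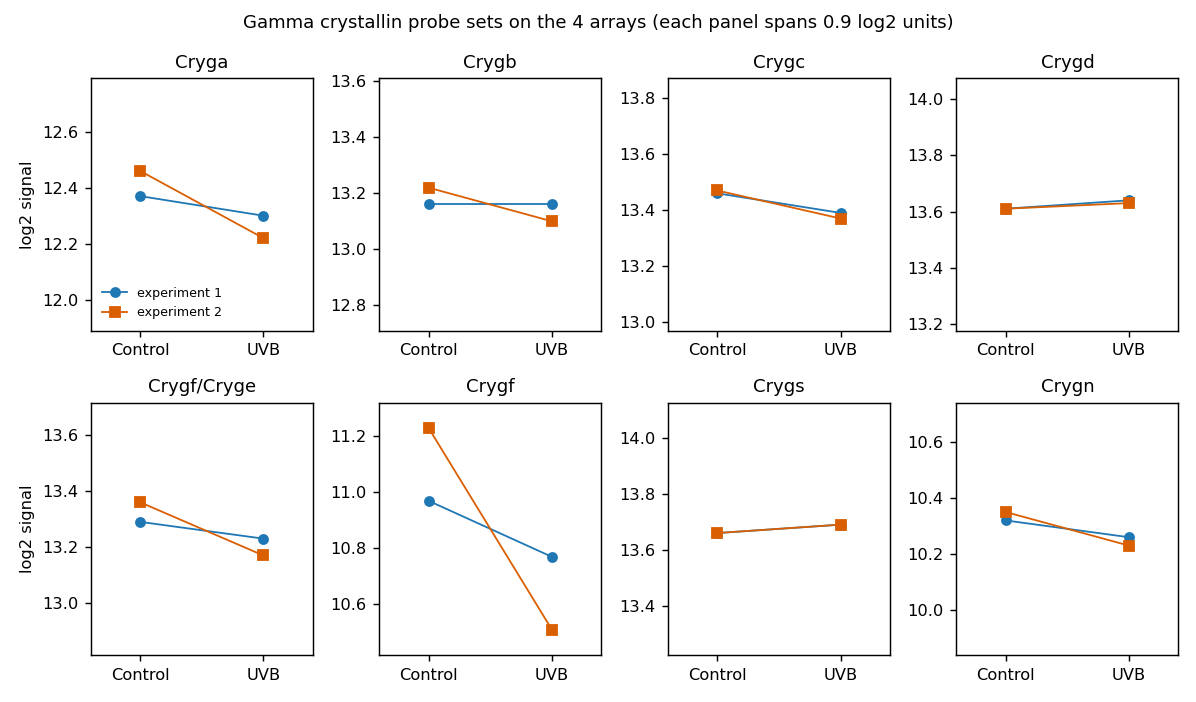
Log2 signal of each gamma crystallin probe set in control and UVB epithelia, with circles for experiment 1 and squares for experiment 2, 1 array per point. Every panel spans the same range, and Crygf moved from 10.97 and 11.23 in control to 10.77 and 10.51 after UVB, whereas Crygd and Crygs stayed within 0.03 of their control values. The experiments overlie each other in Crygs.

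Cryga, at the end of the run from Cryge to Cryga, had control signals of 12.37 and 12.46 and UVB signals of 12.30 and 12.22. The UVB arrays were the lower ones, with differences of −0.07 in experiment 1 and −0.24 in experiment 2 and a mean of −0.16 (standard error 0.051). Limma's adjusted p was 0.147, or 0.405 with the block. Crygb, its neighbour, had 13.16 and 13.22 in control and 13.16 and 13.10 after UVB. Here the groups met at 13.16, since Crygb had a difference of 0 in experiment 1 and of −0.12 in experiment 2.

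Crygc was the 1 member called at an adjusted p of 0.05. Its control signals of 13.46 and 13.47 and its UVB signals of 13.39 and 13.37 differed by −0.07 in experiment 1 and −0.10 in experiment 2. The mean of −0.085 (standard error 0.012), or 0.943-fold, gave an adjusted p of 0.0442 in limma. With the experiment as a block the adjusted p of Crygc was 0.371, with a 95% interval from −0.20 to 0.031, and with the arrays' 75th percentiles made equal it was 0.110. With any 1 of the 4 arrays left out, limma called 0 probe sets of the whole table, so that those fits say nothing about Crygc. The small spread between the arrays, rather than a large difference, set Crygc apart from Crygf in this test.

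Crygd and Crygs were the members with no lower value after UVB. Crygd had 13.61 on both control arrays and 13.64 and 13.63 on the UVB arrays. Crygs had 13.66 on both control arrays and 13.69 on both UVB arrays. Their differences, 0.03 and 0.02 for Crygd and 0.03 in each experiment for Crygs, are of the order of the second decimal to which the values were rounded. Limma's adjusted p was 0.162 for Crygd and 0.104 for Crygs. With the block, the 95% intervals were −0.085 to 0.13 for Crygd and −0.079 to 0.14 for Crygs. After quantile normalization the mean difference was 0.0012 for Crygd and 0 for Crygs. Both had signals close to the highest value in the table, 13.97.

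Crygn had signals of 10.32 and 10.35 in control and 10.26 and 10.23 after UVB. The levels of the members are not ranked against each other, since probes differ in how strongly they bind. Crygn was lower by −0.06 in experiment 1 and −0.12 in experiment 2, and the mean of −0.090 (standard error 0.019) had an adjusted p of 0.0785 in limma, or 0.389 with the block. Centring each array on its median gave Crygn a mean difference of −0.11 and an adjusted p of 0.0351.

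**Figure D2:**
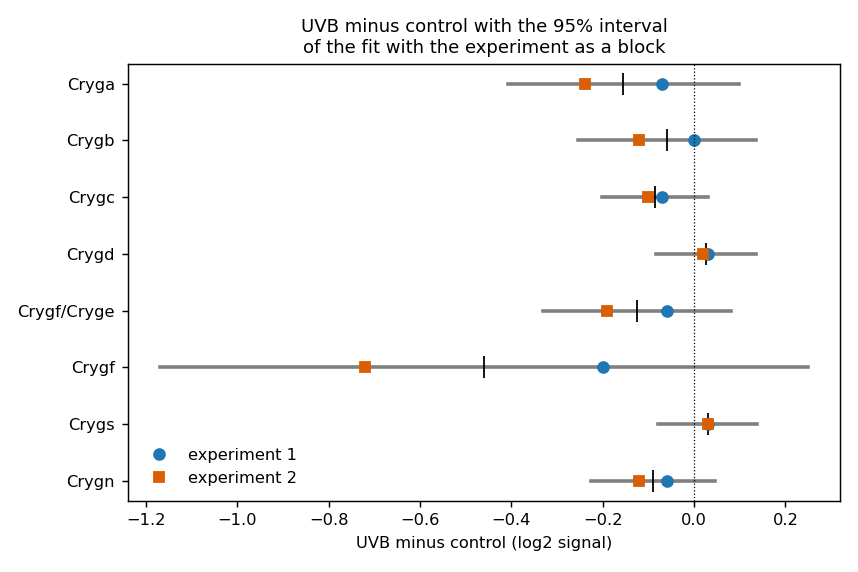
UVB minus control in log2 signal for the 8 probe sets, with circles for experiment 1, squares for experiment 2 and vertical ticks for their mean. Grey bars are 95% intervals from the limma fit with the experiment as a block, and all 8 include 0, from −1.17 to 0.25 in Crygf to −0.079 to 0.14 in Crygs.

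Read against the whole table, the number of calls in the family was ordinary. At limma's adjusted p of 0.05, 1 of 8 gamma crystallin probe sets was lower, against 11.0% of all probe sets, and 0 were higher, against 6.62%. Such lower calls made up 2.37% of the 169 probe sets with a mean signal over 13, where Crygc lies. They made up 8.52% of the 3240 with a mean signal from 10 to 13. At an unadjusted p under 0.05, 2 were lower, against 23.6% of all probe sets, and 1 was higher, against 14.4%. With the block limma called 0 of 28944 at an adjusted p of 0.05. The unadjusted p with the block was under 0.05 in 13.4% of all probe sets and in 0 of the 8. The balance of lower and higher calls over the table moved with the scaling. It was 3184 lower and 1915 higher as deposited, 4921 and 1803 after centring the arrays on their medians, and 2169 and 2348 with the 75th percentiles set equal. By the methods' thresholds, over 1.8-fold and an unadjusted p under 0.01, 0 of the 8 and 0.111% of the table passed. In 5 of the 8 both UVB arrays lay below both control arrays, against 37.4% of all probe sets, and in 2 of the 8 both lay above, against 24.0%. The share lower in both experiments was 20.1% with a mean signal over 13 and 41.0% from 10 to 13. An exact permutation test of 1 value with 2 arrays against 2 cannot give a p below 0.333.

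Among probe sets of like signal, 6 of the 8 had mean differences toward the lower end. Of the 169 with a mean signal over 13, 5 were of the family. In that class 2 probe sets had a lower mean difference than the Crygf/Cryge probe set, 3 than Crygc and 7 than Crygb, whereas 125 had a lower one than Crygd and 129 than Crygs. Those below the shared probe set were Rny3, a small noncoding RNA of Ro particles, at −0.20, and Hspb1, a small heat shock protein, at −0.14, both named after their values were seen. In the class from 10 to 13, 107 had a lower difference than Cryga and 432 than Crygn. The places differed between the experiments. Crygb had 74 of 169 below it in experiment 1 and 3 in experiment 2, Cryga 694 and 62 of 3240, and Crygn 869 and 383 of 3240. These places are descriptions with no test. The median difference over the 8 probe sets was −0.087, with −0.060 in experiment 1 and −0.12 in experiment 2, against −0.020 over all probe sets. It stayed below 0 under every scaling, from −0.068 with the 75th percentiles set equal to −0.11 after centring the arrays on their medians.

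**Figure D3:**
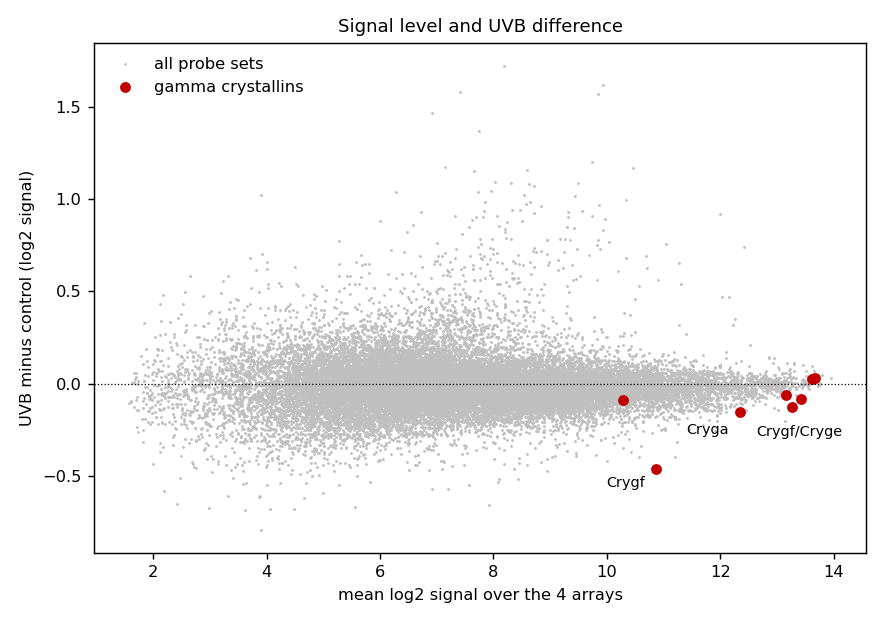
Mean log2 signal over the 4 arrays (horizontal) and UVB minus control in log2 signal (vertical) for all 28944 probe sets in grey and the 8 gamma crystallin probe sets in red. Differences narrow toward the upper end of the signal range, and Crygf at −0.46 lies below the other probe sets with a mean signal from 10 to 13.

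The alpha and beta crystallins, the other structural proteins of the lens, had differences nearer to 0. Of 8 measured genes, 0 were called in either direction by limma, and 3 were higher at an unadjusted p under 0.05, a threshold that 14.4% of all probe sets passed upward. Their median difference was 0.015, and all signals lay between 13.05 and 13.82, at the upper end where the brighter gamma crystallins lie too. Cryba1, a beta crystallin, had the largest difference upward, 0.09 in experiment 1 and 0.05 in experiment 2, and Crybb1 the largest downward, 0 and −0.04. Whether the gamma crystallins differed from them was not tested.

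Of the other genes of fiber cells, 12 of 13 listed were measured, 2 were lower at an adjusted p of 0.05 and 0 were higher. Centring the arrays on their medians gave 7 lower. With the block 0 were called, and 2 had an unadjusted p under 0.05. The list had a median difference of −0.060. Those called were Bfsp2, a beaded filament protein (−0.08 in each experiment, limma's adjusted p = 0.0287), and Lctl, a klotho-family protein (−0.06 in each experiment, adjusted p = 0.0396). With the block these were 0.371 and 0.426. Birc7, an inhibitor of apoptosis proteins family member, had the lowest mean difference of the list. Its signals were 11.34 and 11.46 in control and 11.06 and 10.95 after UVB, so that it was lower by −0.28 in experiment 1 and −0.51 in experiment 2 (adjusted p = 0.0586). Among probe sets with a mean signal from 10 to 13, only Crygf had a lower mean difference than Birc7. Ces5a, not on the fiber list and named after its values were seen, had the same mean difference, −0.395. It was lower by −0.22 in experiment 1 and −0.57 in experiment 2. Mip, the water channel of fiber membranes, had the largest difference upward, 0.02 and 0.06.

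**Figure D4:**
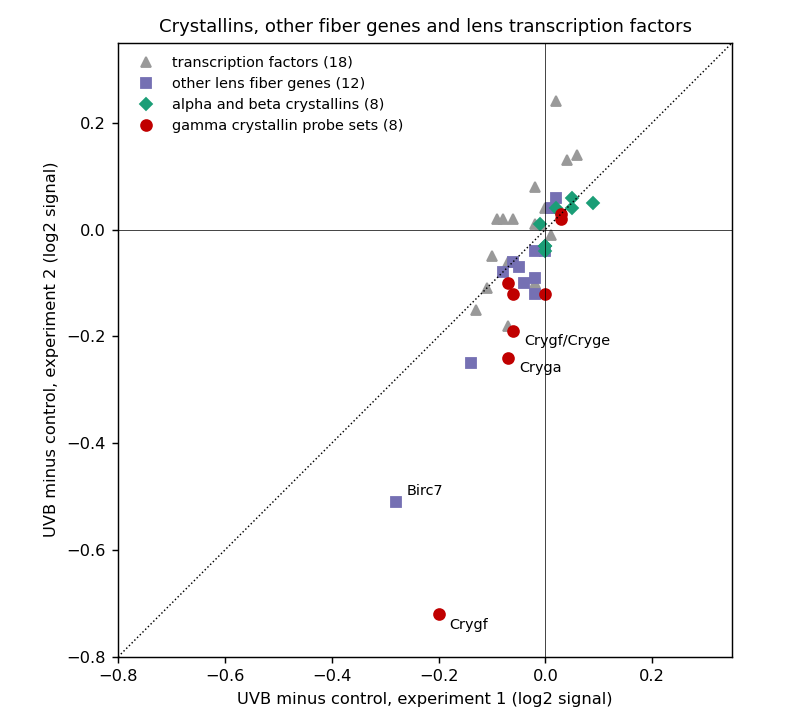
UVB minus control in log2 signal in experiment 1 (horizontal) and experiment 2 (vertical) for the 8 gamma crystallin probe sets, 8 alpha and beta crystallins, 12 other fiber genes and 18 transcription factors, with equal differences on the dotted line. Crygf at −0.20 and −0.72 and Birc7 at −0.28 and −0.51 lie apart toward the lower left, and the alpha and beta crystallins lie near 0.

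Transcription factors that act on crystallin genes or in lens formation had small differences. Of 19 listed, 18 were measured, 3 were lower at an adjusted p of 0.05 in limma and 0 were higher. With the block 0 were called, and 2 had an unadjusted p under 0.05. The median difference was −0.013. Foxe3 differed by −0.13 and −0.15 (adjusted p = 0.0224), Gata3, a factor of fiber differentiation, by −0.11 in each experiment (adjusted p = 0.0224), and Sox1, which is needed for gamma crystallin expression, by −0.07 and −0.06 (adjusted p = 0.0426). With the block these adjusted p were 0.357, 0.357 and 0.410. Maf, an activator of crystallin promoters named here after its values were seen, had signals of 12.43 and 12.44 in control and 12.44 and 12.43 after UVB. Meis1, a homeodomain factor, had the largest difference upward, 0.02 in experiment 1 and 0.24 in experiment 2.

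Values of photoreceptor and retinal pigment epithelium markers are given beside the gamma crystallin results, since many of them were higher after UVB. The methods state that other tissues, the retina among them, were removed from the lens before the epithelium was taken. Of 18 photoreceptor markers, 16 were measured, and all 16 were higher after UVB in both experiments, 9 of them at an adjusted p of 0.05 in limma. With the block 0 were called, and 15 had an unadjusted p under 0.05. Their median difference was 0.66 in experiment 1 and 1.15 in experiment 2. Summed on the linear scale, the photoreceptor signals were 9411 and 7757 in control and 14444 and 17583 after UVB. Markers of the retinal pigment epithelium, 7 of 7 measured and all higher in both experiments, summed to 1760 and 1853 in control and 4903 and 4618 after UVB, with the larger median in experiment 1. The lowest signal of a photoreceptor marker on any array was 6.89, below the array medians of 7.19 to 7.22. Of the lens epithelium markers, 3 of 11 measured were lower and 1 was higher by limma's adjusted p. Among the remaining markers, 3 of 8 of the inner retina, 1 of 5 of Müller glia and 2 of 4 of leukocytes were higher, 1 of 6 of cornea and conjunctiva was lower, and of 6 of ciliary body and iris 1 was higher and 1 lower. The Müller glia marker called was Rlbp1, which is also among the retinal pigment epithelium markers. The 1 red blood cell marker measured was not called. The part of the retinal signal in the lower gamma crystallin values was not tested.

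Of 240 probe sets of 1 gene with a control level within 1 log2 unit of the family's median, those whose deviations over the 4 arrays came nearest to the median of the family were 1 probe set each of Rpl19, Fau and Rps7, all genes of ribosomal proteins, at Euclidean distances of 0.0095, 0.010 and 0.017. Their differences were −0.07 and −0.12 for Rpl19, −0.07 and −0.11 for Fau, and −0.07 and −0.14 for Rps7 in experiments 1 and 2. Such closeness was common, since 34 of the 240 and 4 of the 8 gamma crystallin probe sets lay within 0.05 of that median.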

How the data were processed

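Lens epithelia of 2 control and 2 UVB arrays were analysed. The deposited values are log2 signals per probe set, which the authors normalized in Affymetrix Expression Console and gave to 2 decimals. Its version and background step: not given in the sources used here. Although a human gene array is named in the methods, the probe sets carry mouse symbols, and these were used. Of 28944 probe sets, 21789 had 1 gene symbol, 1621 several and 5534 none, with symbols updated through RefSeq gene IDs. A listed gene was read from its brightest probe set with 1 symbol.

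The 2 groups were compared with two-sided limma tests (version 3.58.1, R 4.3.3) and no block, and p-values were adjusted after Benjamini-Hochberg over all probe sets. The experiment number, from the titles, where experiment 1 has none, was also used as a block, since the methods compare eyes of the same mice. Around the group means, arrays of 1 experiment deviated in opposite directions (r = −0.998 over probe sets), as equal experiment totals require. The fit was tested on simulated data. The fit without a block counts 2 residual degrees of freedom where equal experiment totals leave 1, so its p-values are too small. By how much was not tested. Alternatives were other scalings, filters, thresholds and each array left out. Members, lists and level ranges were chosen with earlier results of these data known. Named genes were all members, the genes nearest in pattern and, of the crystallin, fiber and transcription factor lists, those called and those with the largest difference in either direction. Promoters were compared with Biopython 1.88. The number of arrays limits the precision.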

Additional observations from a re-analysis of the deposited data

How the results depend on the processing

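The direction of the median gamma crystallin difference held in every alternative run, from −0.060 in experiment 1 alone to −0.16 with only probe sets of a mean signal at or under 13, a choice made after the data were seen. Leaving out each array in turn gave −0.10 to −0.075. An intensity trend, the block and the limit to probe sets above the median level leave each difference as it was. With equal experiment totals, a fit without 1 array gives a value between the differences of the 2 experiments. These runs therefore could not reverse the direction. The calls did not hold as well. The number of gamma crystallin probe sets lower at an adjusted p of 0.05 was 1, namely Crygc. It was 2 after centring the arrays on their medians, 0 with the 75th percentiles set equal, 0 with the replicate block, 0 with the signal limit of 13, which leaves Crygc out, and 0 to 0 when any array was left out. It was 2 at an unadjusted p under 0.05 and 0 by the methods' thresholds. The number higher was 0, but 1, namely Crygs, with an intensity trend or with only probe sets above the median level, and 1 at an unadjusted p under 0.05. Over all probe sets, 3184 were lower and 1915 higher. Centring on the median gave 4921 lower, only probe sets above the median level gave 1182 higher, and the replicate block and each array left out gave 0 in both directions. An unadjusted p under 0.05 gave 6841 lower and 4179 higher, and the methods' thresholds 0 and 32. Of the comparison lists, the other fiber genes had 2 lower, 7 with centring on the median and 0 with the block. The transcription factors had 3 lower and the photoreceptor markers 9 higher, and both had 0 with the block. With the block 1 residual degree of freedom is left, so a lost call is no sign of a smaller difference. The cause of each change was not tested, and some of those fits held fewer arrays or probe sets.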
